A study of Homo sapiens with 12 samples.

Results

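The unfolded protein response is described here through 10 genes. They are the regulators ATF6 and XBP1, the chaperones HSPA5, HSP90B1, CALR and CANX of the endoplasmic reticulum (ER), the folding factors PDIA4, SDF2L1 and DNAJB9, and HERPUD1 of ER-associated degradation. The genes were chosen by name, 10 of the 35544 genes to which counts were summed, and all 10 had enough counts to be among the 15086 genes tested. XBP1 and HERPUD1 rose about 1.9-fold with each of the cleavage-resistant TYRO3 variants. With wild-type TYRO3 they were at 1.644 and 1.575 times the control, which did not pass the test. Between wild-type TYRO3 and the mean of the variants, 0 of the 10 members passed it. CALR fell with all 3 forms of TYRO3, and the major chaperones HSPA5 and HSP90B1 did not pass the test in any comparison. The calls against the control depend on the term for the experiment in the model and on single libraries, of the control and of the TYRO3 groups, as given below.

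RNA was sequenced from WM-266-4, a human melanoma cell line, in 3 experiments with 1 library per group, which gives 12 libraries. All cells, controls included, carried a stable lentiviral knock-down of TYRO3, a receptor tyrosine kinase that ADAM proteases and gamma-secretase cleave in turn. They were kept in puromycin, transfected with jetPRIME and starved of serum overnight before RNA extraction. The pEZY-myc-his plasmids encoded GFP in the control group and, in the other groups, wild-type TYRO3 (WT), TYRO3 ΔGS with the substitution I449A, which resists gamma-secretase, or TYRO3 ΔADAM with P408A, L409P and G419P, which resists ADAM proteases. The labels name GFP for the control, whereas the study's text speaks of a plasmid without an insert. Effects of expressing a membrane protein from a plasmid, with or without cleavage, cannot be told apart here from effects of TYRO3 signaling, because GFP is a cytosolic protein and no other membrane protein was expressed.

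The totals of estimated counts ran from 18365999 to 38184838 in 11 libraries, and the GFP library of experiment 1 had 4008293. TYRO3 itself was at 47.3 to 56.6 CPM (counts scaled to the size of the library) in the GFP libraries and at 1181 to 3695 CPM in the 9 TYRO3 libraries, as their labels say. The melanocyte markers PMEL (709 to 1260 TPM, a level scaled for transcript length as well as library size) and SOX10 (213 to 388 TPM) were present in every library. Keratin KRT5 was at 0 in every library and the T cell marker CD3E was at most 0.11 TPM, whereas LUM, listed as a fibroblast marker, was at 36.2 to 84.5 TPM. Summed over 8 melanocyte markers, the level was 1640 to 1990 TPM in the GFP libraries, 1070 to 1990 with WT, 1100 to 1610 with ΔGS and 1100 to 1660 with ΔADAM. Over 10 markers of other cell types, mostly from LUM, it was 72.7 to 94.9 TPM with GFP, 50.9 to 68.3 with WT, 47.0 to 76.1 with ΔGS and 51.7 to 66.7 with ΔADAM. PMEL makes up most of the first sum. Within that list, MITF, the regulator of melanocyte genes, fell by log2 fold changes of -1.01 with ΔGS and -1.06 with ΔADAM, and DCT, a pigment enzyme, by -1.24 with each (edgeR test described below). SOX10 fell by -0.38 with ΔADAM, and 0 of the 8 were called with WT, against 3.59% of all genes tested. TYRP1, at 0.251 to 3.81 TPM, went the other way at 0.66, 0.55 and 0.73 with WT, ΔGS and ΔADAM, and was not called. LUM was called lower in all 3 comparisons with GFP, at -0.69, -0.61 and -0.65 with WT, ΔGS and ΔADAM. Of the other fibroblast markers, DCN was also lower and COL1A1 was higher, at 0.44, 0.44 and 0.33, and neither was called. The part of these differences in the results was not tested. Nothing in the sources used here says that the 3 experiments used separately established lines, so p-values measure the spread between these experiments. In bulk RNA, more cells that respond and more RNA per cell cannot be told apart.

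When unfolded proteins build up in the ER, 3 membrane sensors act. IRE1 (encoded by ERN1) removes a short intron from XBP1 mRNA outside the nucleus, which shifts the reading frame and yields an active transcription factor. ATF6 moves to the Golgi, where the proteases encoded by MBTPS1 and MBTPS2 release its cytosolic part as a transcription factor, and PERK (EIF2AK3) phosphorylates eIF2 alpha and favours translation of ATF4. ATF6 is best known for raising ER chaperones and XBP1 itself, XBP1 for raising genes of ER-associated degradation and secretion, and ATF4 for raising genes of amino acid supply and redox balance. ATF4 is also reached through other eIF2 alpha kinases that do not sense the ER.

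Of the 10 members, 7 carry near an annotated start the letters through which ATF6 is known to act. The ER stress response element (ERSE, the letters CCAAT and CCACG with 9 bases between them) and the shorter ERSE-II (ATTGG and CCACG with 1 base between them) were searched on both strands in promoter windows of RefSeq (GRCh38.p14), from 250 bases before to 50 bases after each annotated start. These letters do not occur within each other, and each match was read in the direction of the motif. ERSE was found in 27 of 35116 windows (0.0769%) and ERSE-II in 19 windows (0.0541%). ERSE was held by 5 members and ERSE-II by 2, while the windows of ATF6, PDIA4 and DNAJB9 held neither. The matches are printed because the genes that hold the same letters differed in their response below. Capitals mark the letters that the motif fixes.
HSPA5 ERSE, chr9:125241387-125241413: ttcaCCAATcggcggcctCCACGacgg
HSP90B1 ERSE, chr12:103930212-103930238: ctgaCCAATcggaaggagCCACGcttc
HSP90B1 ERSE, chr12:103930317-103930343: cccaCCAATcgcgccgcaCCACGcacc
CALR ERSE, chr19:12938380-12938406: ccgaCCAATgatggtcgaCCACGcgtg
CANX ERSE, chr5:179698774-179698800: ccggCCAATcttcacactCCACGaaga
XBP1 ERSE, chr22:28800599-28800625: ctggCCAATcgcggagggCCACGaccg
HERPUD1 ERSE-II, chr16:56932021-56932039: gccgATTGGgCCACGttgg
SDF2L1 ERSE-II, chr22:21642110-21642128: tttgATTGGtCCACGcttc

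XBP1 and HSPA5 lie on the minus strand, and the other genes in these lines on the plus strand. The HSPA5 and XBP1 matches read in the direction of the gene, as do CANX, HERPUD1 and the first of HSP90B1, while CALR, SDF2L1 and the second of HSP90B1 read against it. The match of XBP1 began 52 bases before the start and that of HSPA5 66 bases before it. CANX had 4 windows, and its match began 151 bases before a start that lies inside the gene (chr5:179678628-179730925). The 2 matches of HSP90B1 also lie inside the span of its gene (chr12:103930107-103953645), 194 and 89 bases before the start used. The core TGACGTG of the unfolded protein response element, an element through which XBP1 is known to act, was in 692 windows (1.97%) and in 0 members. The core of the C/EBP-ATF response element, to which ATF4 binds (TGATG and AA with 1 base between them), was in 1270 windows (3.62%) and in 1 member, HERPUD1.
HERPUD1 C/EBP-ATF core, chr16:56931962-56931977: gggcTGATGcAAcccg

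In the GFP libraries the members covered a wide range of levels per transcript length. HSP90B1, the HSP90 of the ER lumen, had 778 ± 33.9 TPM and CALR, a calcium-binding lectin chaperone, 723 ± 35.8 TPM (SD, n = 3), and the ranges of these genes overlapped. CANX, the membrane-bound partner of CALR, followed with 457 ± 67.0 TPM and HSPA5 (BiP), the HSP70 of the ER, with 307 ± 38.6 TPM (SD, n = 3). SDF2L1, which assists HSPA5, had 91.2 ± 10.1 TPM, XBP1 77.7 ± 14.1 TPM and HERPUD1 69.7 ± 9.01 TPM (SD, n = 3), and neighbours in this order overlapped. ATF6 stood at 32.9 ± 2.38 TPM, above the HSPA5 co-chaperone DNAJB9 (ERdj4) with 19.0 ± 4.85 TPM and the disulfide isomerase PDIA4 with 17.9 ± 3.67 TPM (SD, n = 3), which overlapped. HSPA5 is annotated with 1 transcript. A form of CANX marked for nonsense-mediated decay, CANX-218, took on average 30.4% of the TPM of its gene, and a form of PDIA4 with a retained intron, PDIA4-203, took 26.7%.

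**Figure D1:**
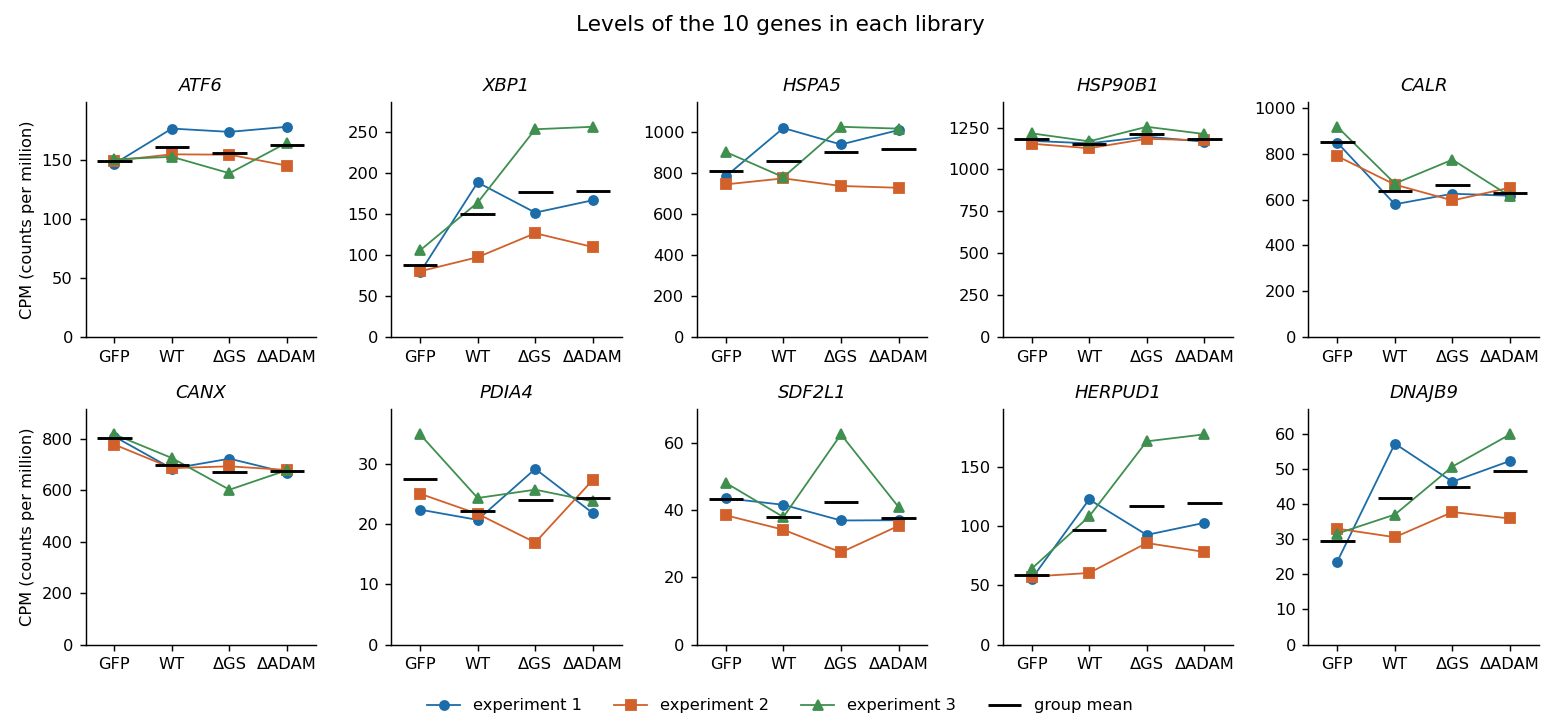
Level of each of the 10 genes in CPM (vertical axis, from 0, with its own scale in each panel) in the GFP, WT, ΔGS and ΔADAM libraries. Points joined by a line are the libraries of 1 experiment and black bars are the means of 3 libraries. XBP1, HERPUD1 and DNAJB9 spread up to 256, 178 and 59.95 CPM, CALR lies lower in every TYRO3 library, and HSP90B1 stays between 1127 and 1255 CPM.

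The members were then compared between groups with edgeR's quasi-likelihood test in a model with a term for each experiment. A gene was called at an adjusted p of at most 0.05. With WT, 1 of the 10 members was called, against 3.59% of all genes tested. With ΔGS, 3 members were called against 9.0% of all genes, and with ΔADAM 3 members against 10.2%. With a fold change over 1.5 required as well, 0, 2 and 2 members were called, against 2.35, 4.71 and 5.2% of all genes in the same order. The 3 comparisons share the GFP libraries. The study's methods correct the TPM values for a batch that sets experiment 1 apart from experiments 2 and 3. That correction was not repeated here. With the same split of the experiments fitted in edgeR as a 2-level batch term, in place of the term for each experiment, 0 of the 10 members were called in any comparison with GFP, and the calls over all genes were 6, 80 and 213 in place of 541, 1357 and 1537 for WT, ΔGS and ΔADAM. With the term for each experiment kept, leaving out the GFP library of experiment 1 or that of experiment 3 also left 0 members called in each of these comparisons. DESeq2, with a term for each experiment, called more members: XBP1, HERPUD1 and CALR with WT, CANX as well with ΔGS, and CANX and DNAJB9 as well with ΔADAM.

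XBP1 (ENSG00000100219, GRCh38 chr22:28794555-28800597) had 78.6, 80.0 and 106 CPM in the GFP libraries of experiments 1, 2 and 3. It had 188, 97.2 and 164 CPM with WT, 152, 126 and 253 with ΔGS and 167, 110 and 256 with ΔADAM. Every ΔGS and ΔADAM library was above the highest GFP library, and the WT library of experiment 2 fell within the GFP range. Within experiments, the ratio to GFP was 2.39, 1.21 and 1.55 with WT, 1.93, 1.58 and 2.40 with ΔGS and 2.12, 1.37 and 2.43 with ΔADAM, so it was lowest in experiment 2 for each form of TYRO3. The log2 fold change was 0.93 with ΔGS (standard error 0.19, 95% confidence interval 0.52 to 1.34, adjusted p = 0.0168 from edgeR) and 0.92 with ΔADAM (0.51 to 1.33, adjusted p = 0.0165). With WT it was 0.72 (0.30 to 1.13, adjusted p = 0.0598), which missed the threshold in edgeR and passed it in DESeq2 (adjusted p = 0.00323). Under the 2-level batch term the adjusted p were 0.334, 0.156 and 0.139 for WT, ΔGS and ΔADAM at log2 fold changes of 0.76, 1.00 and 1.01. Of the 12 fits that each lacked 1 library, 9 called XBP1 with ΔGS and 8 with ΔADAM. The calls were lost without the GFP library of experiment 1 or 3 for both variants, without the ΔGS library of experiment 2 for ΔGS, and without the ΔADAM library of experiment 1 or 3 for ΔADAM.

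The rise of XBP1 was then split by the intron that IRE1 removes. Its 26 bases lie on the minus strand of chromosome 22 in exon 4 of the 5 exons of XBP1-201, within the coding sequence (GRCh38, transcripts of GENCODE 29). The run is shown in capitals with 2 bases on each side, and 7 placements give the same spliced sequence, of which the one with the known IRE1 loop at both ends was used.
XBP1 intron, chr22:28796127-28796152: cgCAGCACTCAGACTACGTGCACCTCTGca

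Of the 7 annotated transcripts of XBP1, 4 hold the run, XBP1-207 and XBP1-202 lack it, and XBP1-205 covers neither case. The share of XBP1 counts on the forms without the intron was 10.5, 13.5 and 13.7% in the GFP libraries of experiments 1, 2 and 3. It was 18.1, 20.0 and 8.27% with WT, 12.3, 15.3 and 14.5% with ΔGS and 11.6, 19.9 and 14.6% with ΔADAM. The groups overlapped, with means of 12.6 ± 1.77, 15.5 ± 6.30, 14.0 ± 1.57 and 15.4 ± 4.22% (SD, n = 3) in the same order. The TYRO3 groups together were 2.38 percentage points above GFP, which did not differ beyond the spread (two-sided exact permutation test within experiments, p = 0.203, the smallest possible being 0.0156). From TPM in place of counts the difference was 0.364 points (exact permutation p = 0.938). The GFP library of experiment 1 had only 31.5 counts on these forms, of which 0 were on XBP1-207. These are estimates that kallisto made from reads shared by the forms, so a change of the share smaller than the spread given here was not detectable.

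In CPM, the forms without the intron stood at 8.28, 10.8 and 14.4 in the GFP libraries and at 34.1, 19.4 and 13.5 with WT. With ΔGS they stood at 18.5, 19.3 and 36.7 CPM and with ΔADAM at 19.3, 21.8 and 37.3 CPM. All ΔGS and ΔADAM libraries lay above the GFP libraries for these forms, as they did for XBP1 as a whole, whereas the share did not separate the groups.

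**Figure D2:**
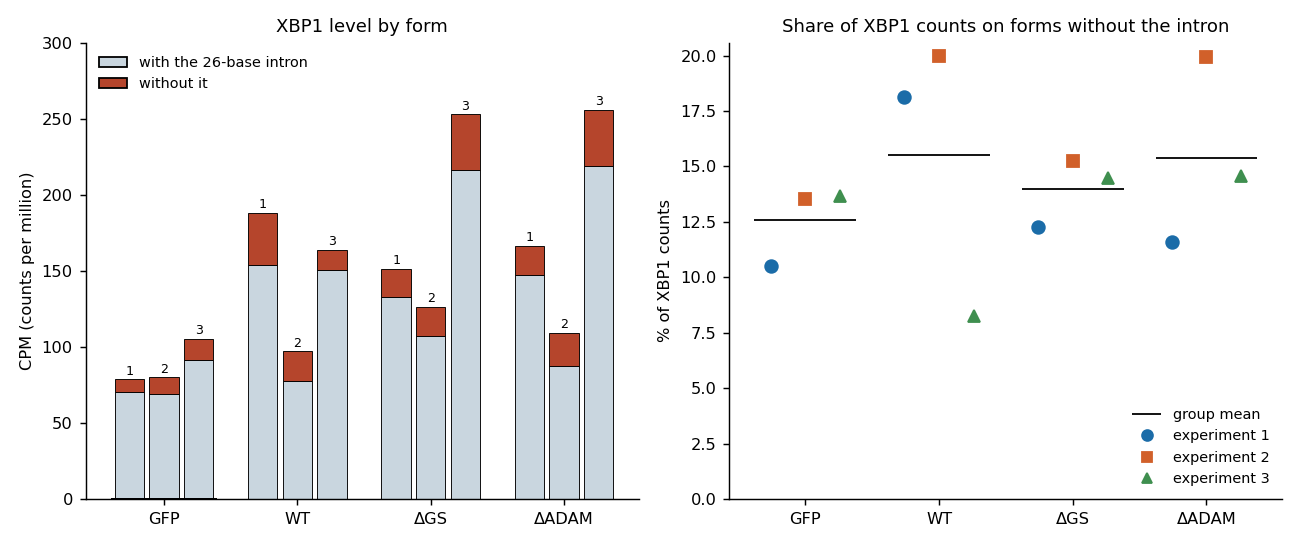
Left, XBP1 level in CPM, with each bar split into forms with and without the 26-base intron and the number of the experiment above it. Right, share of XBP1 counts on forms without the intron in % by library, with the group means as black lines. Within each experiment the bars of WT, ΔGS and ΔADAM are above that of GFP, while the shares of all groups overlap between 8.27 and 20.0%.

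ATF6 (ENSG00000118217, chr1:161766294-161964070) had 147, 149 and 150 CPM in the GFP libraries of experiments 1, 2 and 3. It had 176, 155 and 152 CPM with WT, 174, 154 and 139 with ΔGS and 178, 145 and 164 with ΔADAM. The WT libraries were just above the GFP libraries, and the ΔGS and ΔADAM libraries overlapped them. With WT, ΔGS and ΔADAM its log2 fold changes were 0.10, 0.05 and 0.12, which did not pass the test (adjusted p = 0.523, 0.745 and 0.414, edgeR), and the upper ends of their confidence intervals were 0.29, 0.24 and 0.30. ATF6 is switched on by cleavage of its protein, which RNA does not show.

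HERPUD1 (ENSG00000051108, chr16:56932048-56944863) is an ER membrane protein that gathers the machinery of ER-associated degradation, and both ATF6 and ATF4 are known to raise it. Its levels were 55.5, 57.5 and 64.1 CPM in the GFP libraries of experiments 1, 2 and 3, 123, 60.6 and 108 with WT, 92.8, 85.9 and 172 with ΔGS and 103, 78.4 and 178 with ΔADAM. The ΔGS and ΔADAM libraries were all above the GFP libraries, and the highest values were in experiment 3, as for XBP1. Ratios to the GFP library of the same experiment were 2.21, 1.05 and 1.69 with WT, 1.67, 1.49 and 2.68 with ΔGS and 1.86, 1.36 and 2.77 with ΔADAM. HERPUD1 rose by a log2 fold change of 0.89 with ΔGS (standard error 0.22, adjusted p = 0.0329) and 0.91 with ΔADAM (adjusted p = 0.0291, edgeR). With WT the log2 fold change was 0.66 (0.16 to 1.15, adjusted p = 0.120 by edgeR and 0.0294 by DESeq2), and it was 0.355 without the WT library of experiment 1, 0.455 without the GFP library of experiment 3 and 0.939 without that of experiment 2. The 2-level batch term gave adjusted p of 0.368, 0.168 and 0.141 for WT, ΔGS and ΔADAM at log2 fold changes of 0.73, 0.98 and 1.02. Its calls with ΔGS and ΔADAM held in 8 of the 12 fits that left out 1 library each, and were lost without the GFP library of experiment 1 or 3, the ΔGS library of experiment 2 or 3 (for ΔGS) and the ΔADAM library of experiment 1 or 3 (for ΔADAM). The main coding form HERPUD1-201 went the same way, with 25.99 to 27.47 TPM in the GFP libraries and 42.4 to 77.2 TPM in the ΔGS and ΔADAM libraries.

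CALR (ENSG00000179218, chr19:12938578-12944489) had 850, 790 and 919 CPM in the GFP libraries, the highest 3 of its 12 values. It had 580, 666 and 671 CPM with WT, 626, 597 and 775 with ΔGS and 617, 653 and 615 with ΔADAM. No TYRO3 library reached the lowest GFP library, and the ratio within an experiment ran from 0.669 to 0.843. CALR fell by a log2 fold change of -0.42 with WT (standard error 0.09, 95% interval -0.62 to -0.21, adjusted p = 0.0379), of -0.36 with ΔGS (adjusted p = 0.0367) and of -0.44 with ΔADAM (adjusted p = 0.0186, edgeR). It was the member called with all 3 forms of TYRO3. By the 2-level batch term, the adjusted p were 0.129, 0.117 and 0.0649 at log2 fold changes of -0.42, -0.36 and -0.44. In the fits that left out 1 library each, CALR was called in 4 of 12 with WT, 5 of 12 with ΔGS and 8 of 12 with ΔADAM. Without the GFP library of experiment 1 or 3, it was called in no comparison (0 of 3), at log2 fold changes of -0.37, -0.31 and -0.38 without the first of these.

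CANX (ENSG00000127022, chr5:179678628-179730925) had 808, 777 and 816 CPM in the GFP libraries, 683, 685 and 725 with WT, 722, 692 and 601 with ΔGS and 668, 678 and 677 with ΔADAM. As for CALR, all 9 TYRO3 libraries were below the GFP libraries. The log2 fold changes of -0.20, -0.25 and -0.25 with WT, ΔGS and ΔADAM missed the threshold (adjusted p = 0.176, 0.0692 and 0.0695, edgeR). By DESeq2, CANX was called lower with ΔGS (adjusted p = 0.0176) and ΔADAM (adjusted p = 0.0249). The ΔGS library of experiment 3 stood apart in its forms, with 25.2 TPM of CANX-218 against 98.3 to 156 TPM in the other 11 libraries. In the same library the coding form CANX-209 was at 0.538 TPM, whereas the most abundant coding form, CANX-202, was at 158 TPM.

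HSPA5 (ENSG00000044574, chr9:125234853-125241330), the abundant chaperone that also holds the sensors inactive, had 784, 745 and 903 CPM in the GFP libraries of experiments 1, 2 and 3. It had 1020, 774 and 780 CPM with WT, 940, 737 and 1026 with ΔGS and 1010, 728 and 1017 with ΔADAM. The groups overlapped, and the experiments differed: in experiment 1 the ratio to GFP was 1.20 to 1.30, in experiment 2 it was 0.978 to 1.04. The log2 fold changes were 0.08, 0.14 and 0.16 (adjusted p = 0.740, 0.463 and 0.374, edgeR), with 95% intervals of -0.17 to 0.32, -0.11 to 0.39 and -0.08 to 0.41 for WT, ΔGS and ΔADAM.

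HSP90B1 (ENSG00000166598, chr12:103930107-103953645) was the steadiest member, with a highest level only 1.11 times the lowest over 12 libraries. It had 1171, 1154 and 1216 CPM in the GFP libraries, 1156, 1127 and 1168 with WT, 1196, 1183 and 1255 with ΔGS and 1166, 1174 and 1212 with ΔADAM. The log2 fold changes were -0.04, 0.04 and 0.00, and their 95% intervals did not extend beyond -0.17 and 0.17. Reads of its pseudogenes HSP90B2P and HSP90B3P came to at most 0.52 CPM in a library.

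DNAJB9 (ENSG00000128590, chr7:108569568-108574850), a co-chaperone of HSPA5 and a well-known target of XBP1, had 23.7, 33.1 and 31.7 CPM in the GFP libraries of experiments 1, 2 and 3. It had 57.3, 30.6 and 37.1 CPM with WT, 46.4, 37.8 and 50.8 with ΔGS and 52.4, 35.95 and 59.95 with ΔADAM. The ΔGS and ΔADAM libraries did not overlap the GFP libraries, and the ratios in experiment 2 were 0.926, 1.14 and 1.09 for WT, ΔGS and ΔADAM. With adjustment over all genes, its log2 fold changes were 0.39, 0.52 and 0.64 and missed the threshold (adjusted p = 0.312, 0.140 and 0.0724, edgeR). DESeq2 called DNAJB9 higher with ΔADAM (adjusted p = 0.0142). With WT the value of DNAJB9 ran from 0.134 without the WT library of experiment 1 to 0.696 without the GFP library of experiment 2. The GFP library of experiment 1 had 90 counts of DNAJB9.

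PDIA4 (ENSG00000155660, chr7:149003062-149028641) had 22.4, 25.0 and 34.8 CPM in the GFP libraries, 20.7, 21.7 and 24.3 with WT, 29.1, 16.9 and 25.7 with ΔGS and 21.8, 27.3 and 23.7 with ΔADAM. SDF2L1 (ENSG00000128228, chr22:21642261-21644298) had 43.7, 38.6 and 48.2 CPM in the GFP libraries, 41.7, 34.3 and 38.1 with WT, 37.0, 27.5 and 62.7 with ΔGS and 37.1, 35.4 and 41.0 with ΔADAM. Both genes overlapped GFP in every comparison. For PDIA4 the log2 fold changes were -0.32, -0.22 and -0.19 (adjusted p = 0.360, 0.496 and 0.564, edgeR), and for SDF2L1 -0.19, -0.08 and -0.20 (adjusted p = 0.589, 0.816 and 0.514). With WT, for example, the 95% intervals ran from -0.74 to 0.10 for PDIA4 and from -0.58 to 0.20 for SDF2L1, so a change anywhere inside these intervals remains possible.

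**Figure D3:**
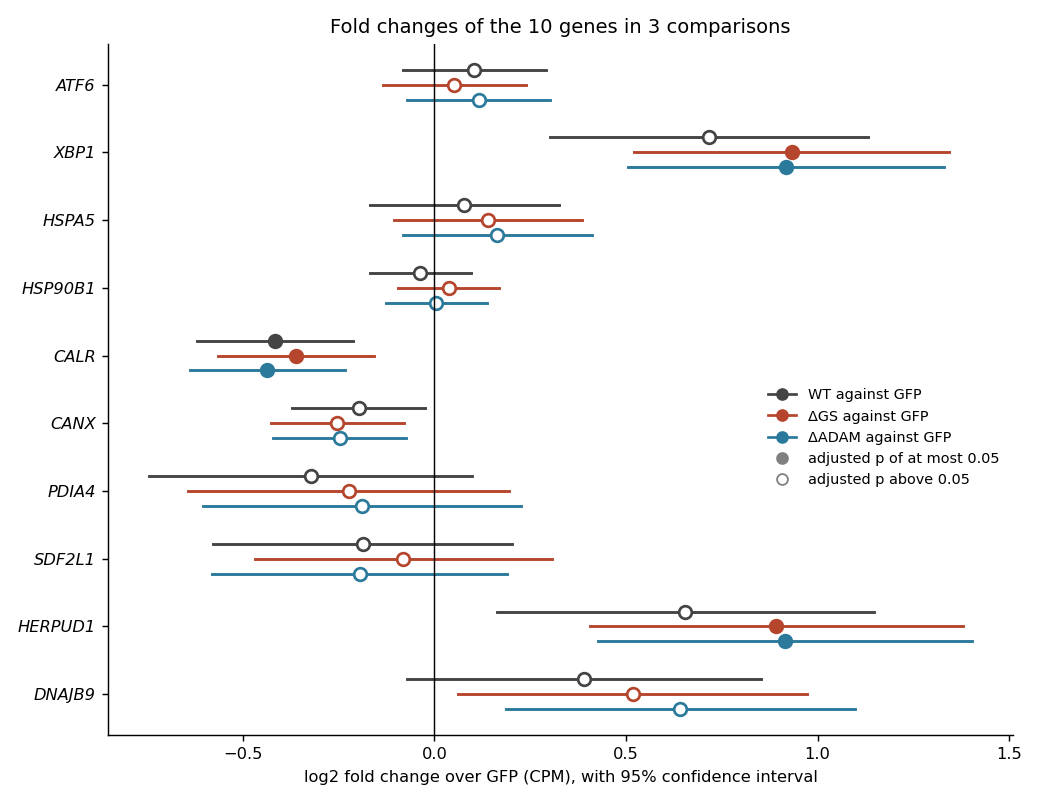
Log2 fold change over GFP (horizontal axis) of the 10 genes with WT, ΔGS and ΔADAM, with 95% confidence intervals as lines, from 3 libraries per group. Filled points passed an adjusted p of 0.05. XBP1 and HERPUD1 reach 0.89 to 0.93 with both variants and 0.72 and 0.66 with WT. CALR lies at -0.36 to -0.44 in all 3 comparisons, and HSP90B1 lies between -0.04 and 0.04.

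Counting members whose 3 libraries did not overlap the GFP libraries gives 3 with WT (ATF6 above, CALR and CANX below), where 20.8% of all genes did not overlap. With ΔGS there were 5 members, XBP1, HERPUD1 and DNAJB9 above and CALR and CANX below, against 21.0% of all genes, and with ΔADAM the same 5 against 25.8%. In the single experiments, 4 to 7 of the 10 were above the GFP library of the same experiment, and the median log2 ratio of the 10 lay between -0.12 and 0.25.

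**Figure D4:**
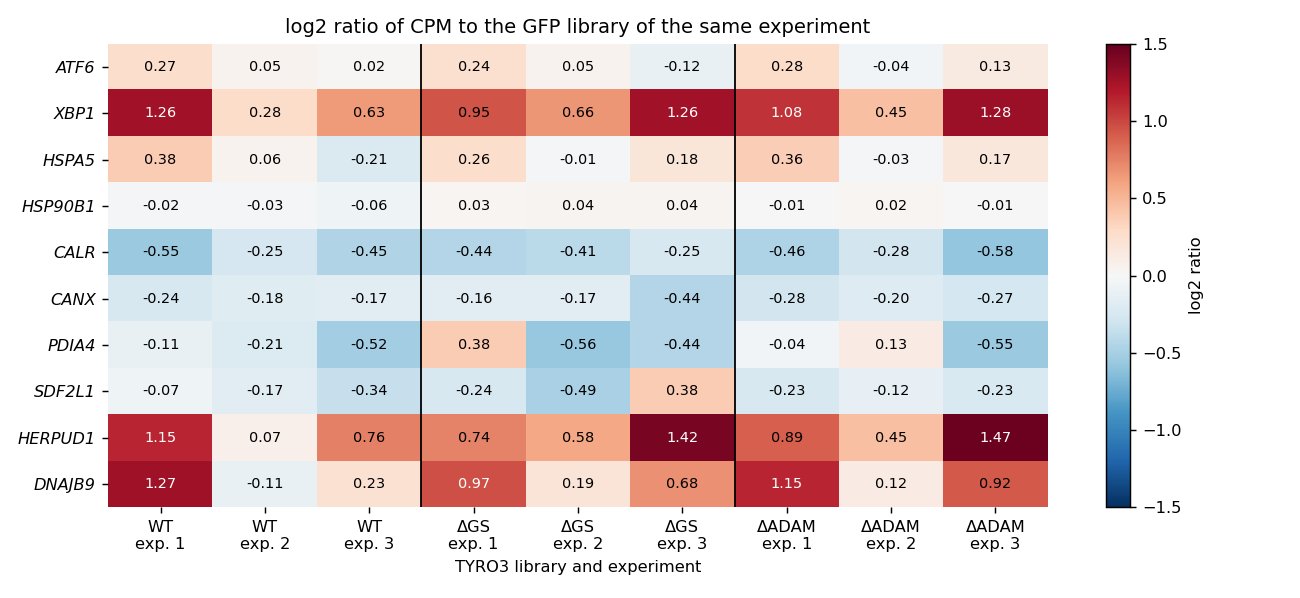
Log2 ratio of the CPM of each of the 10 genes (rows) in each TYRO3 library (columns, by group and experiment) to the GFP library of the same experiment, with red above and blue below GFP and the ratio printed in each cell. XBP1 is above 0 and CALR below 0 in all 9 columns, and the ratios of XBP1 and HERPUD1 are lowest in experiment 2.

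The sets of genes known to answer to each branch were described apart. Of 13 known ATF6 targets, which include 7 of the members, 0 were called higher and 1 lower with WT, and 2 higher and 1 lower with each variant. Those called were XBP1 and HERPUD1, higher, and CALR, lower. The median log2 fold change of the 13 was -0.16, -0.06 and -0.12 for WT, ΔGS and ΔADAM, where the median of all genes tested lay between -0.003 and 0.007. Over all genes tested, 2.15, 4.54 and 4.87% were called higher and 1.44, 4.45 and 5.32% lower in the same order. Among the 6 ATF6 targets that are no members (HYOU1, MANF, CRELD2, PDIA6, PDIA3 and SEL1L), 0 were called in any of these comparisons.

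Of 17 known XBP1 targets, which act in protein entry, vesicle transport and degradation, 0 were called higher by edgeR in any comparison with GFP. Over all genes, 2.15, 4.54 and 4.87% were called higher with WT, ΔGS and ΔADAM, so 0 of 17 does not set the list apart. The list includes the member DNAJB9, which DESeq2 called higher with ΔADAM (adjusted p = 0.0142). The only call was SEC31A, a coat protein of vesicles that leave the ER, with a log2 fold change of -0.35 with ΔGS (adjusted p = 0.0445, edgeR, and 0.106 under the 2-level batch term). Its log2 ratios to GFP with ΔGS were -0.222, -0.226 and -0.6 in experiments 1, 2 and 3. The strongest fall was in the ΔGS library of experiment 3, which also stood apart in the forms of CANX. The medians of the 17 were 0.08, 0.01 and 0.07. SERP1, which stabilises membrane proteins at the translocon, had 155, 157 and 199 CPM in the GFP libraries and 171 to 234 CPM in the TYRO3 libraries, and missed the threshold at log2 fold changes of 0.25, 0.25 and 0.28 (adjusted p = 0.121, 0.0929 and 0.0576, edgeR).

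The sensors and their proteases make a list of 6 genes. ERN1, which encodes IRE1, had 12.9, 13.3 and 11.5 CPM in the GFP libraries, 20.9, 13.9 and 17.4 with WT, 17.4, 14.9 and 14.4 with ΔGS and 21.3, 15.7 and 21.5 with ΔADAM. All TYRO3 libraries lay above the GFP libraries, and ERN1 rose with ΔADAM (log2 fold change 0.59, adjusted p = 0.0254). With WT and ΔGS the log2 fold changes were 0.42 and 0.27 (adjusted p = 0.115 and 0.245, edgeR). EIF2AK3, which encodes PERK, had 18.15, 17.45 and 12.03 CPM with GFP, 12.7, 12.3 and 13.1 with WT, 11.4, 10.9 and 8.40 with ΔGS and 11.4, 9.89 and 11.2 with ΔADAM. It fell with ΔGS (log2 fold change -0.62, adjusted p = 0.0303) and ΔADAM (-0.53, adjusted p = 0.0468, edgeR), and its value with WT was -0.29 (adjusted p = 0.285). Under the 2-level batch term the adjusted p of these calls were 0.0613 for ERN1 with ΔADAM and 0.0800 and 0.0962 for EIF2AK3 with ΔGS and ΔADAM.

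The genes downstream of PERK and ATF4 had the largest medians of the lists described here. Of these 8 genes, 1 was called higher with WT and 5 with each variant, with medians of 0.93, 1.25 and 1.30. Over all genes, 2.15, 4.54 and 4.87% were called higher with WT, ΔGS and ΔADAM. All 8 genes of the list had positive fold changes in all 3 comparisons. ATF4, the transcription factor of this branch, had 246, 211 and 282 CPM in the GFP libraries of experiments 1, 2 and 3, 499, 254 and 453 with WT, 390, 386 and 882 with ΔGS and 432, 351 and 761 with ΔADAM. The ΔGS and ΔADAM libraries were all above GFP, and experiment 2 again gave the lowest WT value. The log2 fold changes of ATF4 were 0.67 with WT (adjusted p = 0.0998), 1.07 with ΔGS (adjusted p = 0.0166) and 0.98 with ΔADAM (adjusted p = 0.0198, edgeR).

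ASNS, which makes asparagine, had 87.3, 93.2 and 192 CPM with GFP, 420, 254 and 387 with WT, 346, 304 and 535 with ΔGS and 379, 278 and 529 with ΔADAM. Its log2 fold changes were 1.55, 1.68 and 1.68 (adjusted p = 0.00246, 0.0013 and 0.00115, edgeR). CHAC1, which degrades glutathione, rose from 3.68 to 8.34 CPM with GFP to 18.9 to 107 CPM with the variants, at log2 fold changes of 2.67 and 2.64 (adjusted p = 0.0168 and 0.0161). With WT, CHAC1 had 44.6, 8.40 and 33.9 CPM, and its log2 fold change of 2.06 missed the threshold (adjusted p = 0.0657, edgeR). TRIB3 and ATF3 were also called with both variants and not with WT. With WT, ATF3 had a log2 fold change of 1.32 (adjusted p = 0.0858, edgeR). The ratios of TRIB3 with WT to GFP were 4.83, 0.981 and 1.82 in experiments 1, 2 and 3. DDIT3 (CHOP) had 12.9 to 19.7 CPM with GFP and 19.0 to 47.8 CPM with the variants, and was not called with ΔGS (log2 fold change 0.86, adjusted p = 0.0748) or ΔADAM (0.72, adjusted p = 0.117, edgeR). Nor was it called with WT (0.43, adjusted p = 0.419, edgeR). Under the 2-level batch term, the only call left in this list was ASNS with ΔADAM (adjusted p = 0.0474).

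For the 4 lists that follow, the share of all genes tested that were called was 3.59, 9.0 and 10.2% with WT, ΔGS and ΔADAM. Whether a list differs from that share was not tested. Of 16 genes of ER-associated degradation, 0 were called with WT. HERPUD1 and SELENOS, a membrane anchor of VCP, were called higher with ΔGS, and HERPUD1 and the ubiquitin-conjugating enzyme UBE2J1 with ΔADAM. DERL1, a channel component, and VCP, the ATPase that pulls substrates out, fell with ΔADAM by log2 fold changes of -0.22 and -0.31 (adjusted p = 0.0468 and 0.0390, edgeR). Among 10 genes of disulfide formation, 0 were called with WT, and TXNDC5 was called lower with ΔGS and ΔADAM (log2 fold changes of -0.32 and -0.33, adjusted p = 0.0316 and 0.0269). Of 9 genes of glycoprotein folding, CALR was the only call in each comparison. Of 8 co-chaperones of HSPA5, SEC63 was called higher with ΔADAM (log2 fold change 0.27, adjusted p = 0.0388, edgeR), and 0 were called with WT or ΔGS. In these 4 lists, 0 genes were called under the 2-level batch term.

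**Figure D5:**
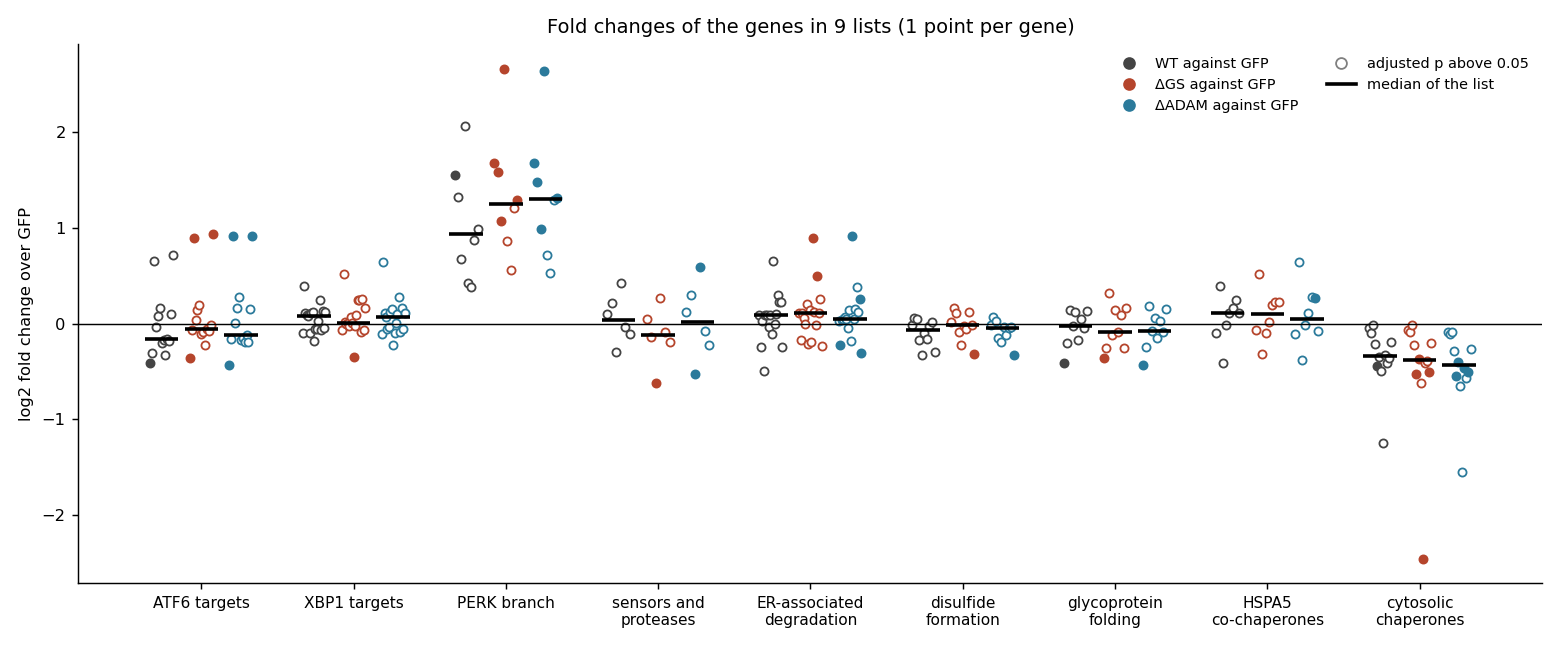
Log2 fold change over GFP (vertical axis) of each gene in 9 lists, 1 point per gene, with WT in grey, ΔGS in red and ΔADAM in blue, filled where the adjusted p was at most 0.05. Black bars are medians. The PERK branch stands highest with medians of 0.93, 1.25 and 1.30, the cytosolic chaperones lowest with -0.34, -0.38 and -0.43, and the medians of the other lists lie between -0.16 and 0.11.

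The last comparisons ask whether cleavage of TYRO3 matters for these genes. WT was set against the mean of ΔGS and ΔADAM, and ΔGS against ΔADAM. In both, 0 of the 10 members and 0 of the 15086 genes were called (0.0%) by edgeR, with 237 and 217 genes at an unadjusted p under 0.05, and DESeq2 called 16 and 14 genes. XBP1 with WT was below the mean of the variants by a log2 fold change of -0.21 (95% interval -0.56 to 0.14), and HERPUD1 by -0.25 (-0.66 to 0.17). For CALR the difference was -0.02 (-0.19 to 0.16) and for HSPA5 -0.07 (-0.29 to 0.14). Between ΔGS and ΔADAM, XBP1 differed by 0.02 (-0.38 to 0.41) and HERPUD1 by -0.02 (-0.49 to 0.45). Differences inside these intervals could not be resolved with 3 libraries per group, so a call with the variants and none with WT is not a difference between them.

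The genes whose pattern over the 12 libraries was most like the mean of the members were found from log2 CPM after the mean of each experiment was removed. They were SPOCK2 (Pearson's r = 0.974), TRAPPC2B (0.968), MAFF (0.962), UBE2D3 (0.961) and ZNF263 (0.961). These are descriptions over 12 libraries that share their experiments and groups, and the mean of the members can be led by those that vary most. Before the experiment means were removed, the highest CPM of XBP1 and HERPUD1 was 3.26 and 3.21 times the lowest. For DNAJB9, SDF2L1 and PDIA4 it was 2.53, 2.28 and 2.06 times. The part of each member in the mean was not computed.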

How the data were processed

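Polyadenylated RNA of 12 libraries was measured with a stranded TruSeq kit. Per the labels and the study's methods, reads were trimmed by the authors (PRINSEQ, Trimmomatic 0.33) before quantification with kallisto 0.46.0 on the Ensembl transcripts of GRCh38. The deposited values are estimated counts and TPM (scaled for transcript length and library size) per transcript, as the authors' kallisto run gave them, without the batch correction that the study applied later.

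Estimated counts were summed per gene over transcripts matched by identifier without version to GENCODE 29 (169754 of 188753 transcripts, 97.4 to 97.5% of the counts of a library), rounded, scaled with TMM, filtered with filterByExpr (minimum count 10, minimum total 15) and tested in edgeR 4.0.16 (R 4.3.3) by quasi-likelihood. kallisto divides reads among transcripts that share sequence, so values of single transcripts are less certain than sums per gene. Terms were fitted for the 4 groups and for each experiment. P-values were adjusted over all 15086 genes tested by the method of Benjamini and Hochberg. The sample titles number the experiments, which pairs the libraries. Deviations from the group means correlated at 0.0389 to 0.529 between libraries of the same experiment and at -0.375 to 0.0535 between others, and these ranges overlap. The deviations sum to 0 within a group, which by itself lowers the values between experiments where those within experiments are positive. The pairing therefore rests on the titles.

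The members, the lists, the test and the term for each experiment were chosen with earlier results of these data known, which included a larger number of calls with that term than without it. The alternatives were a term for experiment 1 against 2 and 3 (the split of the study's batch correction, which worked on TPM and was not repeated), no batch term, DESeq2 1.42.0, RLE size factors, a minimum of 10 counts in all libraries or none, only the groups compared, experiments 2 and 3 alone, limma 3.58.1 on log2(TPM + 1), a fold change over 1.5 and each library left out. Genes named were the 10 members, up to 3 genes of each other list with the smallest p, and the 5 genes most like the mean of the members. Other genes of a list were named as called. DDIT3 was named after its values were seen. Promoter sequences came from RefSeq and the XBP1 sequence from GENCODE 29. Protein sequences were not used here.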

Additional observations from a re-analysis of the deposited data

How the results depend on the processing

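Without the replicate block, with a term for experiment 1 against 2 and 3 or with no batch term, 0 members were called with WT, 0 with ΔGS and 0 with ΔADAM, in place of 1, 3 and 3. DESeq2 called 3 with WT, 4 with ΔGS and 5 with ΔADAM, and no filter on low counts gave 3, 3 and 4. Only the groups compared gave 0 with WT and 2 with ΔGS (CALR lost), limma on TPM gave 2 with ΔGS (HERPUD1 lost), a fold change over 1.5 as well gave 0 with WT, and experiments 2 and 3 alone gave 0 with WT, 1 with ΔGS and 0 with ΔADAM. Leaving out 1 library at a time, the numbers ranged from 0 to 3 with WT, 0 to 3 with ΔGS and 0 to 4 with ΔADAM. The cause was not tested. Over all genes, DESeq2 called 1379, 2052 and 2219 with WT, ΔGS and ΔADAM. Without the ΔGS library of experiment 3, edgeR called 1342, 1136 and 2701 genes in the same order, in place of 541, 1357 and 1537.

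Directions changed only for log2 fold changes near 0. With experiments 2 and 3 alone, HSPA5 with WT was at -0.057, ATF6 with ΔGS at -0.023, CALR in WT against both variants at 0.021, and HSPA5 and HERPUD1 in ΔGS against ΔADAM at 0.004 and 0.020. With limma on TPM, ATF6 and CALR in WT against both variants were at -0.010 and 0.022, and HSP90B1, XBP1 and PDIA4 in ΔGS against ΔADAM at -0.005, -0.074 and 0.007. XBP1 in that comparison was at -0.005 with the 2-level batch term and at -0.004 with no batch term.

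Leaving out 1 library, the values that crossed 0 ranged with GFP as the reference as follows. HSPA5 with WT ran from -0.020 to 0.221 and HSP90B1 with ΔADAM from -0.004 to 0.030. With ΔGS, ATF6 ran from -0.011 to 0.120, PDIA4 from -0.458 to 0.0 and SDF2L1 from -0.401 to 0.120. In WT against both variants, HSPA5 ran from -0.176 to 0.068, ATF6 from -0.014 to 0.045, CALR from -0.084 to 0.030, PDIA4 from -0.222 to 0.012 and SDF2L1 from -0.149 to 0.104. In ΔGS against ΔADAM, HSPA5 ran from -0.094 to 0.018, XBP1 from -0.112 to 0.167, ATF6 from -0.130 to 0.007, CALR from -0.014 to 0.153, CANX from -0.065 to 0.084, PDIA4 from -0.294 to 0.188, DNAJB9 from -0.242 to 0.029, HERPUD1 from -0.189 to 0.170 and SDF2L1 from -0.194 to 0.310. XBP1, HERPUD1, DNAJB9, CALR and CANX kept their direction against GFP in every alternative run. The GFP library of experiment 1 has the fewest counts, so ratios in that experiment are the least precise.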

Other observations

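All 12 genes of a list of cytosolic chaperones had negative fold changes in all 3 comparisons with GFP, with median log2 fold changes of -0.34 with WT, -0.38 with ΔGS and -0.43 with ΔADAM. Of all 15086 genes tested, 7469, 7695 and 7499 had positive fold changes in the same order. Not every gene fell in every experiment. In experiment 1 the ratios to GFP were 1.17, 1.41 and 1.46 for HSPA1A and 1.31, 1.24 and 1.29 for BAG3. HSPA1A had 360, 588 and 1188 CPM in the GFP libraries of experiments 1, 2 and 3. HSP90AA1, the inducible cytosolic HSP90, had 4874, 4873 and 6178 CPM in the GFP libraries of experiments 1, 2 and 3, 3038, 4241 and 4452 with WT, 3534, 3614 and 3888 with ΔGS and 3470, 3799 and 3573 with ΔADAM. Every TYRO3 library was below the GFP libraries, and HSP90AA1 fell by log2 fold changes of -0.45, -0.52 and -0.55 (adjusted p = 0.0469, 0.0179 and 0.0140, edgeR). Of all genes, 20.8, 21.0 and 25.8% did not overlap GFP with WT, ΔGS and ΔADAM. In the list, 1, 4 and 4 of the 12 genes were called lower, against 1.44, 4.45 and 5.32% of all genes in the same order. HSP90AB1, the constitutive cytosolic HSP90, was called lower with ΔGS and ΔADAM, as was HSPH1, and HSPA8 with ΔADAM. HSP90B1, their relative in the ER, had log2 fold changes of -0.04, 0.04 and 0.00, while the ER chaperone CALR was lower in the same comparisons, and a difference between cytosolic and ER chaperones was not tested. HSPA1A and HSPA1B are near-identical copies, so how their reads were divided is uncertain. HSPA1B was called lower with ΔGS (log2 fold change -2.46, adjusted p = 0.0179, edgeR). Under the 2-level batch term, 0 of the 12 genes were called in each of the 3 comparisons.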
